A study of Bos taurus with 28 samples.

Results

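The genes described here are 7 that cells switch on quickly after a stimulus: EGR1, KLF4, FOSB, JUNB, ATF3, MAFF and ARC. They were taken as the 7 identifiers that the study's list of genes differing between the diets pairs with these symbols, out of 27607 genes in the deposited table. All 7 passed the filter on low values, as did 14939 genes in all. Because that list came from the same calves, the diet difference of the 7 genes is given as a description: no p-value is printed for it, and calls of these genes in that contrast restate the choice. The rule that took the genes does not draw on their agreement among calves of a single diet, which was tested. The genes and the lists set beside them were, however, chosen with earlier results of these data known.

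Transcripts of the anterior pituitary were measured by mRNA sequencing in 28 crossbred (Angus and Holstein-Friesian) heifer calves killed at 21 weeks of age. The 13 calves labelled high plane of nutrition (HI) were offered up to 10 L of milk replacer a day, holding 1.5 kg of powder, with concentrates to appetite, and were planned to gain 1.2 kg/day. The 15 calves labelled moderate plane (MOD) were offered up to 4 L a day, holding 0.5 kg, with up to 1 kg of concentrates, and were planned to gain 0.5 kg/day. Milk was stepped down to weaning within a calf phase of 8 weeks, which was followed by 11 weeks on hay plus the same concentrate allowance. Each calf gave 1 library, and glands were removed after death, washed in saline and snap frozen. Bulk anterior tissue was sequenced, so fewer cells of a type and less RNA per cell cannot be told apart.

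Immediate early genes are transcribed from factors already present in the cell, so their mRNA can rise without new protein being made. In the pituitary they are known to respond to releasing hormones acting through calcium, MAP kinase and cyclic AMP. EGR1 is best known here as the factor that carries gonadotropin-releasing hormone signals to the luteinizing hormone beta gene. FOSB and JUNB are partners in AP-1 dimers, ATF3 and MAFF are basic leucine zipper proteins that can repress as well as activate, KLF4 is a zinc finger factor, and ARC is a cytoskeletal protein of active neurons rather than a transcription factor.

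Libraries held 12928932 to 18217216 reads on genes in HI calves and 12669266 to 18196391 in MOD calves, so that 1 read was worth 0.0482 to 0.0830 CPM, the unit of level used here (reads of a gene scaled to the TMM-adjusted size of the library). The prolactin gene PRL and CSHL1, a growth hormone family gene as listed, took 15.3 to 32.7% of reads in HI calves and 18.1 to 33.9% in MOD calves. The labelled tissue carried its defining transcripts in every calf, with PRL no lower than 32023 CPM, FSHB (follicle-stimulating hormone beta) no lower than 271.0 CPM and GHRHR (growth hormone-releasing hormone receptor) no lower than 196 CPM. No calf had fewer than 7 reads of any of the 7 genes.

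EGR1 (ENSBTAG00000010069) ran from 20.2 CPM in HI calf 1089 to 421 CPM in HI calf 1050, with a median of 72.0 CPM over 13 HI calves. In the 15 MOD calves it ran from 37.3 CPM in calf 991 to 685 CPM in calf 2537, with a median of 268 CPM. The diets overlapped, but 12 of 13 HI calves lay below the MOD median, and HI calf 1050 stood apart from the next HI calf at 132 CPM. The log2 fold change, HI minus MOD on the log2(CPM + 0.5) scale, was -1.64 (SE 0.43), and without calf 1050 it was -1.85.

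KLF4 (ENSBTAG00000020355), the other zinc finger factor, varied least of the 7. It ran from 2.61 to 5.04 CPM with a median of 3.55 CPM over HI calves, against 2.57 to 11.7 CPM with a median of 5.01 CPM in MOD calves. Again 12 of 13 HI calves lay below the MOD median, and 7 of 15 MOD calves lay above the highest HI calf. Its log2 fold change was -0.51 (SE 0.15). Calf 3622 held the highest value at 11.7 CPM, followed by calf 911 at 8.85 CPM, both MOD.

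FOSB (ENSBTAG00000008182) spanned 0.852 to 8.99 CPM in HI calves (median 1.88 CPM) and 1.24 to 50.4 CPM in MOD calves (median 4.57 CPM). Only calf 1531 in HI exceeded 4.32 CPM, whereas 6 of 15 MOD calves lay above calf 1531. The log2 fold change was -1.54 (SE 0.46). Its mean was 2.46 ± 2.17 CPM (SD, n = 13) over HI calves against 12.6 ± 15.8 CPM (SD, n = 15) over MOD calves, of which calves 3622 and 911 stood at 50.4 and 45.2 CPM.

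Its AP-1 partner JUNB (ENSBTAG00000012046) ran from 12.4 to 65.6 CPM around a median of 22.6 CPM over HI calves, against 15.4 to 169 CPM around a median of 39.0 CPM in MOD calves. The highest MOD calves for JUNB were not those for FOSB: calves 2537 and 2551 held 169.2 and 168.6 CPM and calf 2346 held 107 CPM. Of the HI calves, 11 of 13 lay below the MOD median, and 5 of 15 MOD calves lay above the highest HI calf. The log2 fold change was -0.997 (SE 0.32).

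ATF3 (ENSBTAG00000008545), a stress-inducible member of the ATF/CREB family, ran from 0.545 to 6.60 CPM with a median of 1.70 CPM in HI calves. In MOD calves it ran from 1.07 to 36.1 CPM with a median of 3.11 CPM. A single MOD calf, 2551, carried the 36.1 CPM, with calf 3622 next at 12.3 CPM, and 12 of 13 HI calves lay below the MOD median. The log2 fold change was -0.85 (SE 0.33) and -0.63 without calf 2551.

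MAFF (ENSBTAG00000021435), a small MAF protein without an activation domain of its own, ran from 3.80 to 10.2 CPM with a median of 5.32 CPM in HI calves. In MOD calves it ran from 3.57 to 27.8 CPM with a median of 7.09 CPM. The diets overlapped at the low end, where no HI calf lay below the lowest MOD calf, and parted at the high end, where 5 of 15 MOD calves exceeded every HI calf. The log2 fold change was -0.57 (SE 0.26).

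ARC (ENSBTAG00000021639) separated the diets most completely of the 7. It ran from 1.74 to 5.71 CPM with a median of 3.26 CPM over HI calves, against 4.36 to 43.9 CPM with a median of 10.4 CPM in MOD calves. All 13 HI calves lay below the MOD median, 10 of them lay below the lowest MOD calf, and 13 of 15 MOD calves lay above the highest HI calf. Means were 3.55 ± 1.26 CPM (SD, n = 13) and 14.8 ± 11.6 CPM (SD, n = 15), with a log2 fold change of -1.67 (SE 0.27).

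**Figure D1:**
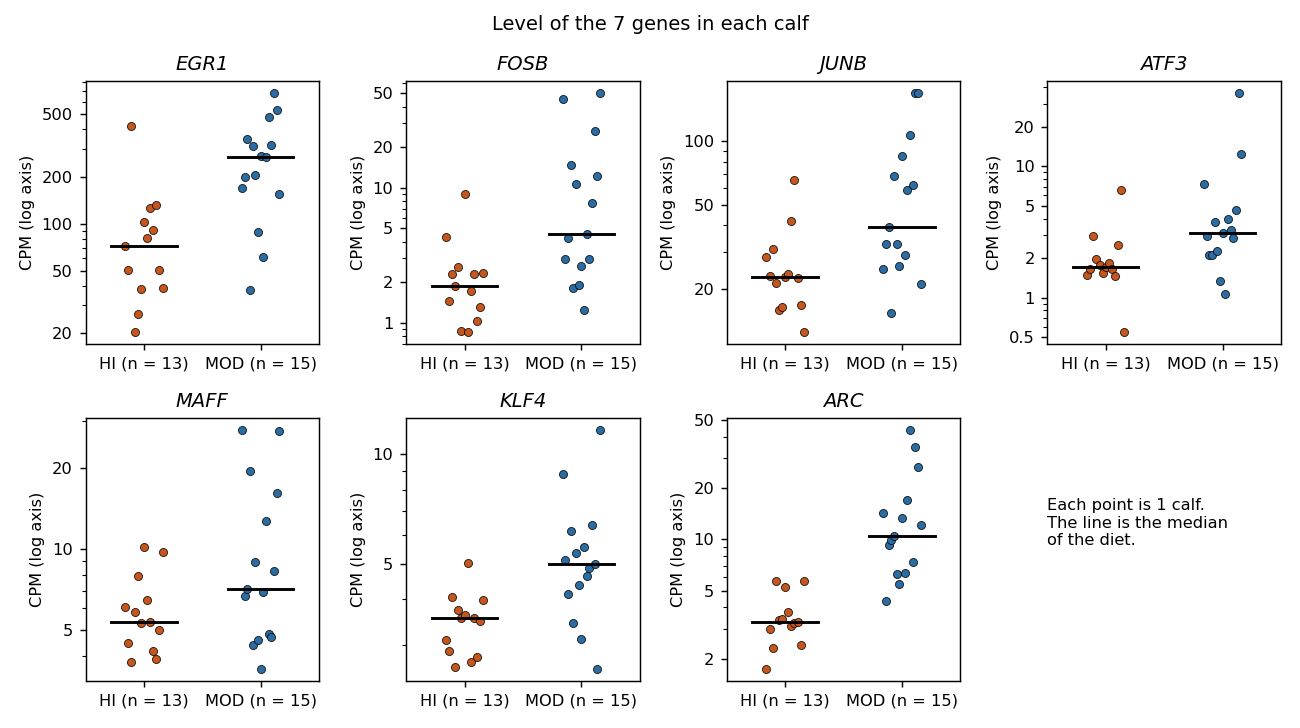
CPM of each of the 7 genes in each calf on log axes, 1 point a calf and a line at the median of the 13 HI or 15 MOD calves. The clouds overlap for EGR1, FOSB, JUNB, ATF3, MAFF and KLF4, and for ARC 13 of 15 MOD calves lie above the highest HI calf.

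Every one of the 7 genes was thus lower in HI calves, as the choice of the genes fixed, with a median log2 fold change of -0.997 against -0.01 over all 14939 genes tested. Under limma (adjusted p below 0.05 and a fold above 1.5), 0.837% of all genes tested were called, 125 in number, and of the 7 EGR1 and ARC were among them. The call of EGR1 was lost without HI calf 1089 or without HI calf 1388. KLF4 passed the adjusted p, but its MOD to HI fold of 1.42 was under 1.5. MAFF, at a fold of 1.49, passed neither threshold. ATF3 at 1.80, JUNB at 2.00 and FOSB at 2.91 were past the fold of 1.5 without passing the adjusted p. On whole reads recovered from the table, 5 of the 7 (all but ATF3 and MAFF) were called by the quasi-likelihood test of edgeR, which called 1.16% of genes, and by DESeq2, which called 1.41%. On those reads the log2 fold change of FOSB was -2.36 with both tools, and that of ATF3 was -1.47 with the quasi-likelihood fit and -0.80 with DESeq2. Nothing is read from these counts, since the genes were picked on this contrast in these calves.

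The spread between calves of a diet was large. The SD of log2 level in MOD calves was 1.57 for FOSB, 1.16 for EGR1, 1.14 for ATF3, 1.06 for JUNB, 0.94 for ARC, 0.93 for MAFF and 0.50 for KLF4, against a median of 0.23 over all genes tested. For 6 of the 7 genes that SD was larger than that of over 99% of genes, and for KLF4 it was larger than that of 91.8%. In HI calves the SD was 1.14 for EGR1, 0.77 for FOSB, 0.62 for both JUNB and ATF3, 0.44 for ARC, 0.43 for MAFF and 0.24 for KLF4, against a median of 0.25. EGR1 therefore varied about as much in HI as in MOD calves, and KLF4 in HI calves was near the middle of all genes, with a smaller SD in 47.1% of them.

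Other quickly induced genes on the study's list were examined beside the 7: the cyclic AMP repressor CREM, the kinase Sik1, the G protein regulators RASD1 and RGS1, the stress gene GADD45B, the factors CEBPD and KLF11, the enzyme TIPARP and the small G protein RRAD. All 9 were lower in HI calves and 6 were called by limma, with a median log2 fold change of -0.70, where 0.428% of all genes tested were called lower. They came from the same list, so neither their direction nor the count of calls is independent evidence, and both are given as a description. The log2 fold change was -1.19 for RASD1 (SE 0.21), -0.65 for CEBPD (SE 0.10), -0.62 for GADD45B (SE 0.16) and -0.53 for CREM (SE 0.19). CREM, TIPARP and KLF11 were the genes not called by limma, whereas with the quasi-likelihood test KLF11 was called and Sik1 and RGS1 were not.

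**Figure D2:**
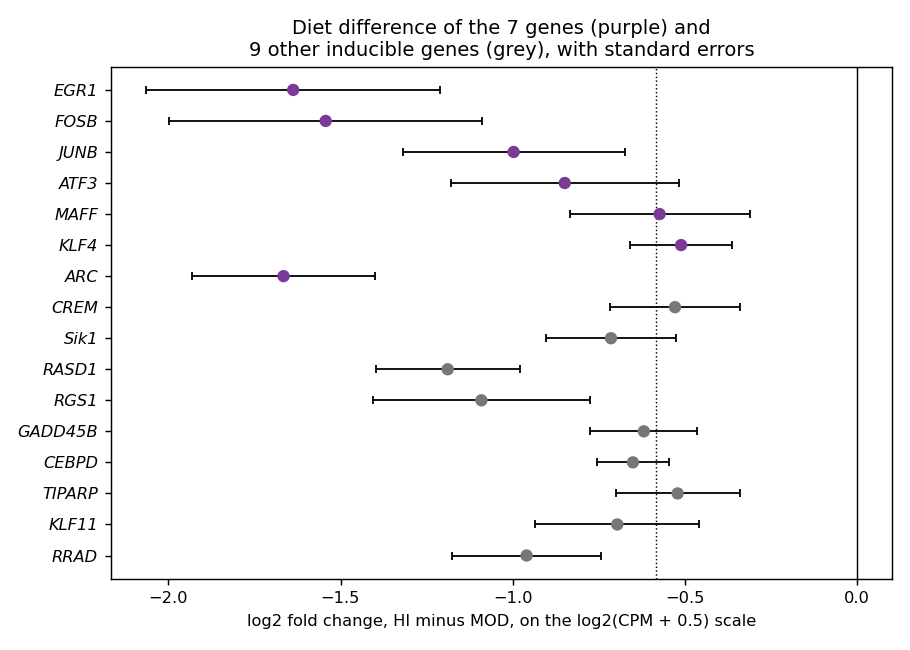
Log2 fold change, HI minus MOD, on the log2(CPM + 0.5) scale, with bars of 1 standard error, for the 7 genes (purple) and 9 other inducible genes (grey), and a dotted line at a fold of 1.5. All 16 lie left of 0, from -1.67 for ARC to -0.51 for KLF4.

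Agreement between the 7 genes across calves was examined next, within each diet, over 21 pairs. Both Pearson's r and Spearman's rho on log2(CPM + 0.5) were tested by 2-sided permutation with 100000 resamples, and p-values were adjusted over 84 tests by the Benjamini-Hochberg method. In MOD calves 2 of 21 pairs passed on both measures, 14 of 21 values of r were positive and the median r was 0.40. In HI calves none of the 21 pairs passed, 11 were positive and the median r was 0.01. Before adjustment, 10 pairs in MOD and 2 pairs in HI had a Pearson p below 0.05.

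The closest pair was EGR1 with JUNB in MOD calves (n = 15, r = 0.86, rho = 0.92, permutation adjusted p = 0.00042 for both, the smallest the permutations can give before adjustment). Without the MOD calves farthest from the EGR1 median, 991 and 1689, r was 0.89, and the pair passed in 15 of 15 fits that left out a MOD calf. In MOD calves JUNB ranked 2 of 14938 genes by its r with EGR1, and EGR1 ranked 7 by its r with JUNB. In HI calves the same pair had r = 0.54 and rho = 0.69 (n = 13, permutation adjusted p = 0.20 and 0.114) and r = 0.66 without calves 1050 and 1089.

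FOSB with MAFF was the other pair that passed in MOD calves (n = 15, r = 0.81, rho = 0.82, permutation adjusted p = 0.0084 for both). Calves 3622 and 911 held the highest values of both genes, and without them r was 0.62. It passed in 15 of 15 fits that left out a MOD calf. In HI calves r was 0.55 and rho 0.44 (n = 13, permutation adjusted p = 0.196 and 0.320), and r was 0.24 without calves 1531 and 553, which had the highest FOSB.

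ARC, although no transcription factor, lay near EGR1 and JUNB in MOD calves without passing on both measures. JUNB with ARC had r = 0.70 and rho = 0.55 (n = 15, permutation adjusted p = 0.0498 and 0.168), falling to r = 0.52 without calves 2537 and 2551. EGR1 with ARC had r = 0.61 and rho = 0.57 (n = 15, permutation adjusted p = 0.121 and 0.154), with r = 0.72 without calves 991 and 1689 but r = 0.24 without calves 2346, 2537 and 2551. ATF3 with ARC had r = 0.53 and rho = 0.73 (n = 15, permutation adjusted p = 0.175 and 0.0462), and r = 0.57 without calves 2551 and 3622.

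KLF4 did not pass with any of the other 6 genes. In MOD calves its r was 0.61 with FOSB and 0.57 with MAFF (n = 15, rho = 0.51 and 0.50, permutation adjusted p = 0.121 and 0.154 for r, 0.20 and 0.214 for rho). These values depended on which calves were kept: without calves 3622 and 911, the highest for all 3 genes, they were 0.16 and 0.08, and without calves 2346, 2537 and 2551 they were 0.84 and 0.81. KLF4 ran against JUNB, with r = -0.62 and rho = -0.64 (n = 15, permutation adjusted p = 0.114 for both) and r = -0.59 without calves 2537 and 2551. FOSB, for its part, did not pass with its AP-1 partner JUNB in MOD calves, at r = -0.11 and rho = -0.18 (n = 15, permutation adjusted p = 0.861 and 0.745), with r = 0.27 without calves 3622 and 911 and r = -0.50 without calves 2346, 2537 and 2551.

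**Figure D3:**
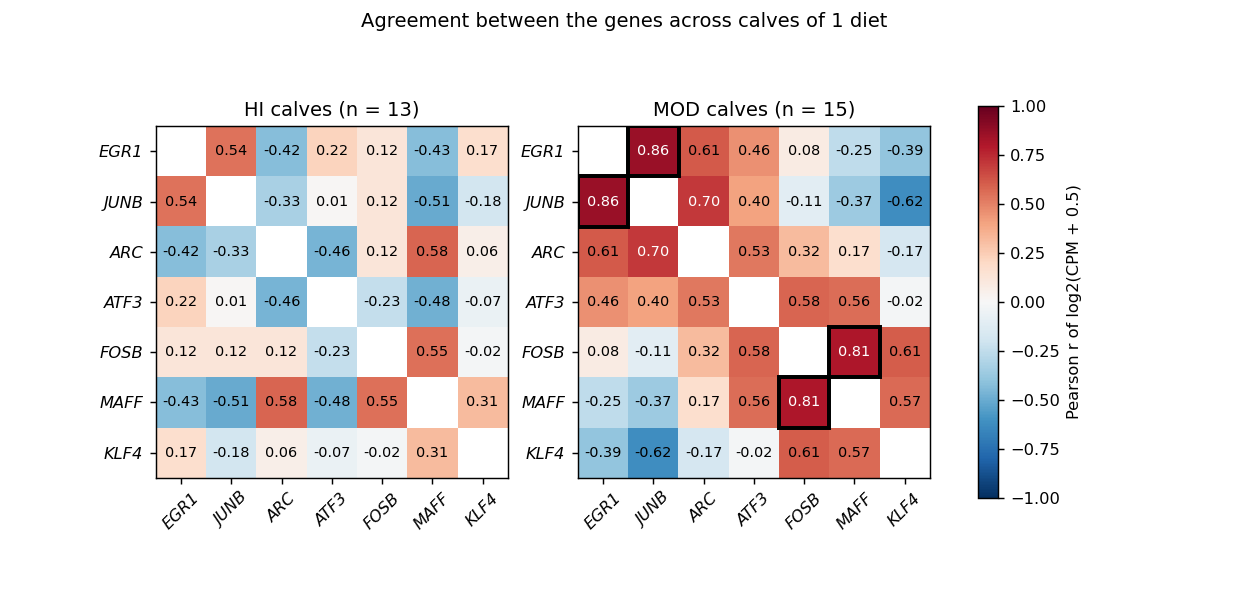
Pearson r of log2(CPM + 0.5) between the 7 genes across 13 HI calves (left) and 15 MOD calves (right), from blue (negative) to red (positive), with black frames on pairs that passed on both r and rho. The frames lie on EGR1 with JUNB (0.86) and FOSB with MAFF (0.81), both in MOD calves.

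The calves with the highest values differed between the genes. MOD calves 2537, 2551 and 2346 were the 3 highest for EGR1, JUNB and ARC alike. Their EGR1 levels were 685, 532 and 483 CPM and their ARC levels were 34.9, 26.5 and 43.9 CPM. MOD calves 3622 and 911 were the 2 highest for FOSB, MAFF and KLF4, yet held only 154 and 169 CPM of EGR1 and 21.0 and 24.7 CPM of JUNB, below the MOD medians. ATF3 belonged to neither set, since its 3 highest calves were 2551, 3622 and 911. Calf 991 held the lowest EGR1 and JUNB of the MOD calves and the third highest MAFF at 19.6 CPM.

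In HI calves no calf was among the 3 highest for all of EGR1, JUNB and ARC, and none for all of FOSB, MAFF and KLF4. Calf 1531 was highest for FOSB and MAFF and among the 3 highest for ARC. Calf 3620 was lowest for JUNB and ATF3 and second highest for MAFF and ARC, and calf 1050 was highest for EGR1 and lowest for MAFF. In neither diet did a calf lie above the median of its diet for all 7 genes.

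**Figure D4:**
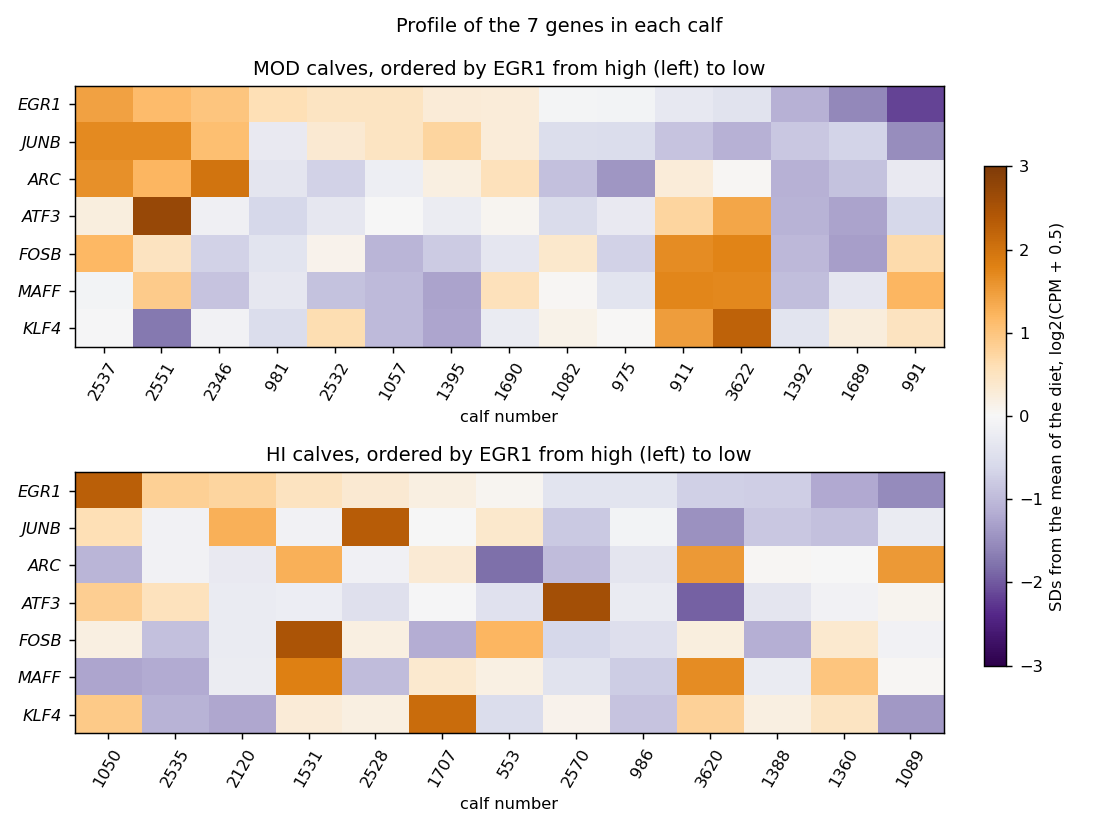
Level of each of the 7 genes (rows) in each calf (columns, numbered, in order of EGR1), as SDs from the mean of the diet on the log2(CPM + 0.5) scale, for 15 MOD calves (top) and 13 HI calves (bottom). In MOD calves, 2537, 2551 and 2346 are high for EGR1, JUNB and ARC, whereas 911 and 3622 are high for FOSB, MAFF and KLF4.

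A principal component analysis of the 7 genes, scaled within the diet, summarised the same values. In MOD calves the first axis held 43.6% of the variance and the second 39.3%. JUNB, EGR1 and ARC loaded on the first axis at 0.56, 0.51 and 0.43 with KLF4 at -0.36. FOSB, MAFF and ATF3 loaded on the second at 0.57, 0.54 and 0.44, with KLF4 at 0.35 and ARC at 0.25. In HI calves the axes held 39.0% and 20.7%, and the first set MAFF and ARC (-0.55 and -0.47) against EGR1, JUNB and ATF3 (0.39, 0.37 and 0.36). The axes are descriptions of these calves and carry no test.

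Sets of calves were then left out together, which was chosen after seeing the values and is given without a test. Without calves 911 and 3622, r in MOD calves was 0.89 for EGR1 with JUNB, 0.80 for JUNB with ARC and 0.62 for FOSB with MAFF (n = 13). Without calves 2346, 2537 and 2551, r was 0.77 for EGR1 with JUNB and 0.86 for FOSB with MAFF, while JUNB with ARC stood at 0.24 (n = 12). For pairs of genes in which the calves left out held the highest values of both, such as JUNB with ARC here, the range is narrowed and a lower r is built into the choice. The pairs EGR1 with JUNB and FOSB with MAFF stayed positive without either set.

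Values of r differed in sign between the diets for 9 of 21 pairs. The difference was tested by permuting diet labels over values standardised within each diet, a test added after the values were seen. JUNB with ARC had the smallest p, with r = -0.33 in HI against 0.70 in MOD (permutation p = 0.00311, adjusted p = 0.0653 over 21 pairs). EGR1 with ARC stood at -0.42 against 0.61 (permutation p = 0.0152, adjusted p = 0.0797) and ATF3 with MAFF at -0.48 against 0.56 (permutation p = 0.0130, adjusted p = 0.0797). FOSB with ATF3 stood at -0.23 against 0.58 (permutation p = 0.0143, adjusted p = 0.0797) and ATF3 with ARC at -0.46 against 0.53 (permutation p = 0.0191, adjusted p = 0.0803). The HI values moved with single calves: JUNB with ARC was -0.16 and ATF3 with MAFF -0.27 without HI calf 3620, and EGR1 with ARC was -0.27 without HI calf 1089. ATF3 with ARC was also -0.27 without HI calf 3620, whereas FOSB with ATF3 lay between -0.29 and -0.15 when an HI calf was left out. In all, 5 pairs had a p below 0.05 before adjustment and 0 passed after it, so no difference between the diets in the agreement of a pair was established. For EGR1 with JUNB the difference in r was 0.32 (permutation p = 0.0522, adjusted p = 0.183).

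Over all 28 calves as they are, 19 of 21 pairs had a positive r and the median r was 0.47, which holds the diet difference on which the genes were chosen. With the mean of each diet subtracted, 14 pairs were positive and the median r was 0.30. The pairs with the highest centred values were FOSB with MAFF at 0.77 and EGR1 with JUNB at 0.73, and JUNB with KLF4 was lowest at -0.54.

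The relation of the 7 genes to other transcripts was examined for the 9 inducible genes, for 6 hormone and receptor genes (PRL, CSHL1, FSHB, GHRHR, the dopamine receptor DRD2 and the activin antagonist FST) and for the read total of the library. This gave 448 tests in the family, 112 relations a diet with each measured by r and rho. In MOD calves 2 of 112 relations passed on both measures and in HI calves 1 of 112 passed.

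CREM, whose inducible product represses cyclic AMP-responsive promoters, was the closest partner. In MOD calves MAFF with CREM had r = 0.95 and rho = 0.87 (n = 15, permutation adjusted p = 0.00448 for both), and r = 0.91 without calves 911 and 3622. The relation passed in 15 of 15 fits that left out a MOD calf, and CREM ranked 1 of 14938 genes by its r with MAFF. CREM itself ran from 17.1 to 66.7 CPM in MOD calves, highest in calf 911 and next in calf 3622 at 63.8 CPM, and from 12.9 to 23.8 CPM in HI calves. In HI calves no relation of CREM with any of the 7 genes passed, and its values of r lay between -0.34 and 0.51.

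FOSB with CREM also passed in MOD calves (n = 15, r = 0.82, rho = 0.78, permutation adjusted p = 0.0242 and 0.0426), with r = 0.64 without calves 3622 and 911. It passed in 6 of 15 fits that left out a MOD calf. JUNB with GADD45B, a sensor of stress and growth arrest, passed on r alone in MOD calves (n = 15, r = 0.80, rho = 0.75, permutation adjusted p = 0.0224 and 0.0513), with r = 0.59 without calves 2537 and 2551. ATF3 with Sik1, a kinase induced by cyclic AMP, did likewise (n = 15, r = 0.82, rho = 0.70, permutation adjusted p = 0.0224 and 0.0851), with r = 0.68 without calves 2551 and 3622. The other inducible relations that passed on r alone in MOD calves were KLF4 with TIPARP (n = 15, r = 0.81, rho = 0.52, permutation adjusted p = 0.0384 and 0.308), FOSB with RRAD (r = 0.73, rho = 0.69, permutation adjusted p = 0.0474 and 0.0851) and MAFF with RRAD (r = 0.73, rho = 0.72, permutation adjusted p = 0.0474 and 0.0672). Without the 2 calves farthest from the median of KLF4, FOSB or MAFF, r was 0.66, 0.49 and 0.48, and RRAD had as few as 9 reads in a MOD calf.

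**Figure D5:**
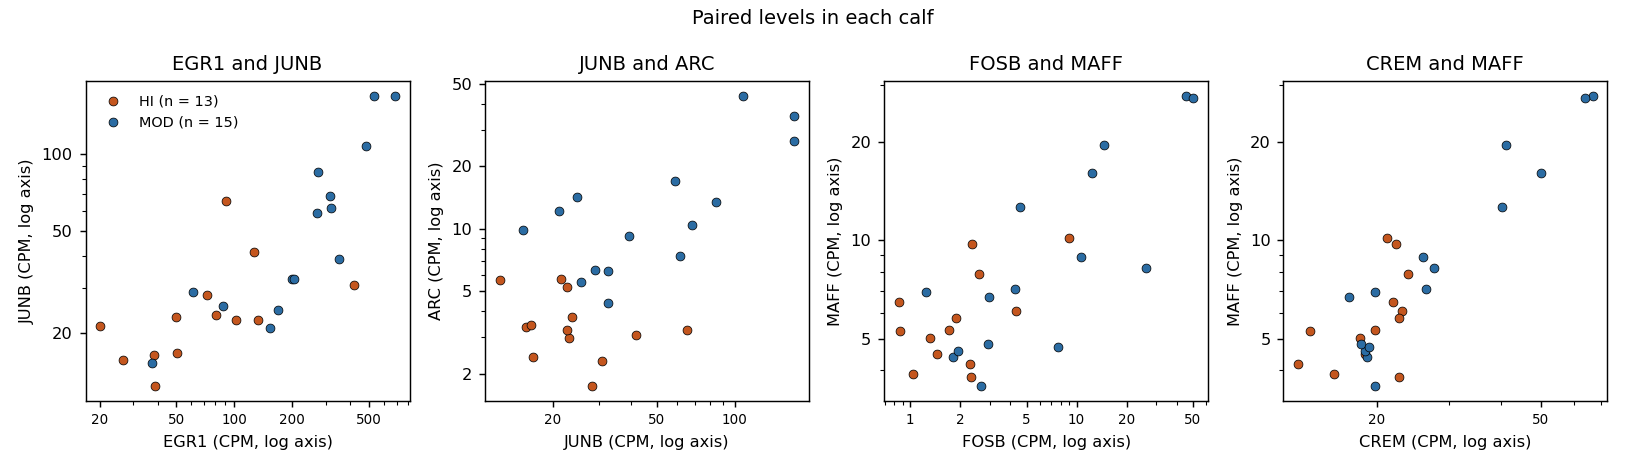
Paired CPM on log axes in each calf for EGR1 and JUNB, JUNB and ARC, FOSB and MAFF, and CREM and MAFF, with 13 HI and 15 MOD calves. MAFF climbs with CREM in MOD calves up to calves 911 and 3622, at 27.8 and 27.4 CPM of MAFF, and HI calves occupy the low end of CREM.

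No relation of the 7 genes to a hormone or receptor gene passed on both measures. The nearest was KLF4 with FST in MOD calves (n = 15, r = 0.77, rho = 0.71, permutation adjusted p = 0.0393 and 0.0816), with r = 0.60 without calves 3622 and 2551. With FSHB, a gene of the gonadotrophs in which EGR1 acts, r over the 7 genes lay between -0.37 and 0.21 in HI calves and between -0.35 and 0.54 in MOD calves. With PRL it lay between -0.58 and 0.40 in HI calves and between 0.08 and 0.67 in MOD calves.

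The relation that passed in HI calves was MAFF with the read total of the library (n = 13, r = -0.83, rho = -0.82, permutation adjusted p = 0.0276 and 0.0386), with r = -0.65 without calves 1531 and 3620. It passed in 5 of 13 fits that left out an HI calf, and did not pass with library totals taken without PRL and CSHL1 or without TMM adjustment. Over the 7 genes, r with the read total lay between -0.83 and 0.49 in HI calves and between -0.25 and 0.03 in MOD calves. In HI calves it was -0.54 for ARC, -0.52 for FOSB, 0.40 for EGR1 and 0.49 for JUNB, none of which passed. Read totals ran over the same range in both diets, and the part of depth in the HI values of the 7 genes was not tested.

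By the rule fixed for naming genes of like pattern, the 3 with the highest r over 28 calves with diet means subtracted were taken for each gene, among 152 genes to which the study's list gives a symbol. They were Sik1 (r = 0.53), ZNF215 and GADD45B for EGR1; CREM (0.75), CDC42EP4 (0.71) and RRAD (0.69) for FOSB; and GADD45B (0.71), ZNF215 and TIMD4 for JUNB. For ATF3 they were Sik1 (0.67), CSHL1 and CREM, for MAFF CREM (0.89), ALDH1A3 (0.80) and CDC42EP4 (0.77), for KLF4 ARRDC2 (0.78), PDK4 (0.74) and TIPARP (0.72), and for ARC GADD45B (0.49), LMOD1 and NRTN. Among all 14938 genes CREM ranked 1 for MAFF, ARRDC2 ranked 2 for KLF4 and CREM ranked 5 for FOSB, while the nearest named gene for ARC ranked 45. These values are given without a p and draw on genes selected for a diet difference in the same calves. Some of the likenesses were not seen in HI calves. In HI and MOD calves r was -0.40 and 0.66 for ARC with GADD45B, -0.03 and 0.67 for EGR1 with GADD45B, and -0.08 and 0.67 for ATF3 with CREM. It was positive in both for MAFF with CREM (0.51 and 0.95), EGR1 with Sik1 (0.70 and 0.35) and ATF3 with Sik1 (0.64 and 0.82).

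Markers of cells other than endocrine cells were present in every calf: 4 immune (CD79B, CX3CR1, TIMD4 and LAMP3), 4 contractile (ACTA2, LMOD1, MYH4 and MYH6) and the mesothelial MSLN. None was at 0 in any calf. Their sum was 86.5 to 168 CPM in HI and 84.1 to 188 CPM in MOD calves, with immune sums of 26.3 to 118 CPM and 18.7 to 69.9 CPM and contractile sums of 23.8 to 84.2 CPM and 31.5 to 150 CPM. Of the 9, LAMP3 and MYH6 were called higher in HI calves, as were 0.408% of all genes tested, and CD79B lower, as were 0.428%. The contractile and immune classes were each mixed in direction. Of the contractile genes MYH4 (0.95) and MYH6 (0.96) had positive log2 fold changes, HI minus MOD, and ACTA2 (-0.69) and LMOD1 (-0.51) negative ones. Of the immune genes CX3CR1 (0.63), TIMD4 (0.77) and LAMP3 (0.62) were positive and CD79B (-0.65) negative. The mesothelial MSLN was positive (0.69). These markers too came from the study's list of genes differing between the diets, so their calls are a description and nothing is read from them. Across MOD calves the marker values nearest to a gene of the 7 were MAFF with CX3CR1 at r = -0.68, KLF4 with CD79B at -0.66 and JUNB with CD79B at 0.64, and across HI calves JUNB with TIMD4 at 0.62, as descriptions without a p (n = 15 and 13). The part of these cells in the levels of the 7 genes was not tested.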

How the data were processed

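The labels set diet and calf number, with 13 calves under HI and 15 under MOD, unlike the equal groups of the study's methods. The authors trimmed adapters with cutadapt, aligned reads of stranded mRNA libraries to ARS-UCD1.2 and counted them per gene with STAR. What the authors deposited is a normalized signal, CPM on TMM-adjusted library sizes, and not raw counts. Dividing by the worth of 1 read gave whole reads for 100% of values (tolerance 0.01 reads). No pair of libraries agreed within sampling noise (smallest chi-square per gene 12.7).

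The 7 genes and all lists were chosen with earlier results of these data known. Genes named beyond the lists were the 3 most alike per gene, as given in the text. The diet contrast was fitted with limma 3.58.1 (trended, robust) in R 4.3.3 on log2(CPM + 0.5) without covariates, after filterByExpr of edgeR 4.0.16, with Benjamini-Hochberg adjustment, and was tested on simulated data, where it recovered 99 of 100 genes changed 2-fold with 2 false calls. Recovered reads were fitted with the edgeR quasi-likelihood test and DESeq2 1.42.0. Alternatives were pseudocounts of 0.1 and 2, relative log expression factors, totals without PRL and CSHL1, totals without TMM, 2 other filters and leaving out each calf. Per the study's methods, calves had been allocated to diets in blocks (by age, weight, source farm and merit), which no fit here includes. Calves are separate animals, so p-values measure the spread between calves. Columns of the study's own fold changes and p-values were not used, and gene sequences were not used here.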

Additional observations from a re-analysis of the deposited data

How the results depend on the processing

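No paired analysis was possible because calf numbers are not shared between the diets and the labels used here give no allocation block. The number of genes called between the diets (125) was 69 with a pseudocount of 2, 211 with DESeq2, 173 with the quasi-likelihood test, and 100 (without HI calf 2120) to 170 (without HI calf 553) when a calf was left out. The median log2 fold change of the 7 genes was -1.47 with the quasi-likelihood test and -1.12 to -0.87 when a calf was left out, negative under each alternative run. The pairs that passed numbered 2 in MOD and 0 in HI calves in each fit that left out a calf. The relations with other genes and read total that passed (3) numbered 1 with totals without PRL and CSHL1, 1 without TMM adjustment, where only MAFF with CREM passed, and 1 to 5 when a calf was left out: 1 without HI calf 1531 or 3620 or MOD calf 911, 991 or 3622, and 5 without MOD calf 975 or 1392. The causes were not tested. No relation or contrast that passed its test turned its direction. FOSB was called without HI calf 553 or 1531 or MOD calf 1057, 1392, 1395 or 1689 and with a pseudocount of 0.1, and JUNB without MOD calf 991. Few reads limit precision, with as few as 7 of ATF3 among the 7 genes and 2 of RRAD among the other inducible genes.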
